A study of Mus musculus with 10 samples.

Results

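Immunoglobulin and plasma cell genes were examined in RNA-sequencing data of effector memory (EM) γδ T cells sorted from the spleens of mice pre-exposed to *P. chabaudi* and of naïve mice. Members were every gene whose symbol marks it as an immunoglobulin heavy, kappa or lambda chain constant, variable (V), diversity (D) or joining (J) gene, together with Jchain, Mzb1 and Xbp1, if it had at least 10 counts over the 10 libraries. Of 27179 genes in the table, 264 matched by name and 240 were members. They comprised 110 Ighv, 99 Igkv and 3 Iglv genes, 4 Ighj, 5 Igkj and 3 Iglj segments, 2 D segments, 7 heavy chain and 4 light chain constant genes and the 3 plasma cell genes. The members nearest to the minimum were Igkv8-18 with 13 counts and Igkv5-37 and Ighd1-1 with 16 counts each, and those just below it were Igkv18-36 and Ighe with 8 counts each and Ighv6-4 with 7 counts. Igll1, a surrogate light chain gene of B cell precursors, had no count.

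The pre-exposed group held 5 female C57BL/6 mice, infected intravenously at 6 to 8 weeks of age with 50000 *P. chabaudi* infected red blood cells (iRBC). The naïve group held 5 female C57BL/6 mice of the same age range that were not infected. From day 14 both groups received chloroquine and pyrimethamine at 10 mg/kg each, followed by both drugs in the drinking water for 5 days, and spleens were taken 12 weeks after treatment. CD3+ γδTCR+ CD62L- CD44+ cells were sorted, and each mouse gave 1 library, so that n = 5 per group throughout.

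Total counts were 8747888 to 22542832 per library in pre-exposed mice and 6587199 to 19993444 in naïve mice. The library of pre-exposed mouse 5 stood apart in its TMM scaling factor of 0.641, against 0.969 to 1.16 in the other libraries. Cd3d, Cd3e, Cd3g and Cd247, which all T cells share, and Trdc, the constant gene of the γδ receptor's delta chain, summed to 3326 to 11175 CPM in pre-exposed mice and 4714 to 7527 CPM in naïve mice. Trdc alone had 1141 to 3835 CPM in pre-exposed mice and 1792 to 3744 CPM in naïve mice. Trac, the constant gene of the αβ receptor's alpha chain, was also counted in every library, at 286 to 506 CPM in pre-exposed mice and 123 to 219 CPM in naïve mice. The library descriptions of pre-exposed mice 2, 3 and 4 carry no index pair, whereas those of pre-exposed mice 1 and 5 and of all naïve mice carry one, and all naïve libraries are thus of 1 kind. Results are therefore also given for pre-exposed mice 1 and 5, and for pre-exposed mice 2 to 4, against all naïve mice.

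Antibodies are made by B cells and, in bulk, by plasma cells. A B cell joins a V, a D and a J gene into the variable part of its heavy chain and a V and a J gene into that of its kappa or lambda light chain, so that its progeny use the same V genes. The constant gene spliced to the heavy chain sets the isotype: Ighm and Ighd give IgM and IgD, the Ighg genes give IgG, Igha gives IgA and Ighe gives IgE, and class switching replaces Ighm by a gene further downstream. γδ T cells rearrange T cell receptor genes and are not known to make antibody. In bulk RNA, fewer cells of a type and less RNA per cell cannot be told apart.

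The kappa J segments are 38 or 39 bases long. Over all libraries Igkj3 had 54 counts, far fewer than the others, and whether its sequence bears on this was not tested. All 5 are printed 5′ to 3′ on the plus strand of chromosome 6, from GENCODE M21 (GRCm38). The capitals mark the 12 bases matching TTCGGNNNNGGN, the codons for phenylalanine, glycine, any residue and glycine that end the variable domain's hypervariable loop.
Igkj1, chr6:70722562-70722599: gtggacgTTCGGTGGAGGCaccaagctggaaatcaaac
Igkj2, chr6:70722916-70722954: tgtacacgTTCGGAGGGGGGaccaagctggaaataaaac
Igkj3, chr6:70723223-70723260: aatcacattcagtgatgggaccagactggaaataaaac
Igkj4, chr6:70723548-70723585: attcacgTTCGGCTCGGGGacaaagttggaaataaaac
Igkj5, chr6:70723886-70723923: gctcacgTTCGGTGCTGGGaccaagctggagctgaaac
The match was present in 4 of the 5 kappa segments, all but Igkj3, in 3 of the 3 lambda and in 0 of the 4 heavy chain J segments, and on the opposite strand in none of them. Of 1877 windows of 38 bases cut from the V gene transcripts, 0 held it on either strand (0%).

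The V genes that took the most counts of their class in more than 1 library were Igkv19-93 in 3 libraries and Ighv1-64 and Igkv8-30 in 2 libraries each. The last 90 bases of each are shown on the sense strand, which is the minus strand for all 3, because this end meets the D or J segment. The capitals mark the codon of the last cysteine, which closes the fold of the variable domain. The coordinates are those of the whole gene in RefSeq (GRCm38).
Ighv1-64, chr12:115507587-115507977: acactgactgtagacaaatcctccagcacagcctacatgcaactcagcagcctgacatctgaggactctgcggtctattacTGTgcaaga
Igkv19-93, chr6:68736297-68736764: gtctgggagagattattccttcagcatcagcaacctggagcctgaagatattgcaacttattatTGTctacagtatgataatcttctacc
Igkv8-30, chr6:70117061-70117617: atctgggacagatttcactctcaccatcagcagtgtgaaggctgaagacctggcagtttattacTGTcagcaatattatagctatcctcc
Near copies could share reads. Among 214 members with a transcript of at least 75 bases, the sequenced read length, 80 shared no exact window of 75 bases with another immunoglobulin gene and 7 shared more than 50% of theirs. Igkv19-93 shared 0%, Ighv1-64 1.81% and Igkv8-30 5.44%, whereas Ighv1-71 shared 97.2%, all with Ighv1-62-2.

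Immunoglobulin genes took more of the counts in most pre-exposed mice than in naïve mice. Their share of all counts was 4.5, 6.68, 1.70, 0.556 and 0.345% in pre-exposed mice 1 to 5, against 0.149, 0.0845, 0.174, 0.737 and 0.112% in naïve mice 1 to 5. The groups overlapped through 1 library, since naïve mouse 4 lay above pre-exposed mice 4 and 5, whereas every pre-exposed mouse lay above the other 4 naïve mice. The mean share was 2.76 ± 2.75% in pre-exposed mice and 0.251 ± 0.274% in naïve mice (SD), a difference of 2.51 percentage points, given as a description with no test. It was 1.52 without pre-exposed mouse 2, 2.17 for pre-exposed mice 1 and 5 and 2.73 for mice 2 to 4. The number of immunoglobulin genes with any count was 233, 233, 215, 184 and 120 in pre-exposed mice and 65, 65, 98, 165 and 44 in naïve mice. Naïve mouse 4 thus had more of these genes with a count than pre-exposed mouse 5.

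Member by member, 235 of the 240 had a higher mean level in pre-exposed than in naïve mice. Every member had a count in some pre-exposed library and 38 had none in any naïve library. A count was found in all 5 pre-exposed libraries for 111 members and in all 5 naïve libraries for 17 members. Ighv1-19, Ighv5-15, Ighv1-15, Igkv12-98 and Ighd1-1, named after their values were seen, were the 5 members with a higher mean in naïve mice.

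With edgeR's quasi-likelihood test and an adjusted p under 0.05, 34 of the 240 members were higher in pre-exposed mice and 0 were lower, with 5.04% of all genes tested called higher and 0.705% called lower. The expression filter let 115 of the 240 members into this test, 5 of them without a naïve library above its level of 0.741 CPM, so the share of called genes among those tested is no measure of the members as a whole. None of the 115 was lower at an unadjusted p under 0.05, and DESeq2 also called 0 lower. With no expression filter, all 240 members were tested, and 71 were called higher and 0 lower, with 4.15% of all genes called higher and 1.04% lower. One member was then lower at an unadjusted p under 0.05. Since 97 of the 240 had no naïve library above 0.741 CPM, the count of 71 is a description. The median log2 fold change over all 240 members was 4.69, with those absent from naïve mice set at their lower bound, against 0.0215 over all genes in that fit. In 20 of the 115 tested members every pre-exposed library lay above every naïve library in CPM, a pattern found in 3.42% of all genes tested. For some of them this rests on the scaling factor of pre-exposed mouse 5. Voom with TREAT at a fold change of 1.5, the kind of test named in the study's methods, called 0 members, with 54 higher at an unadjusted p under 0.05. As run here it called 2 of all 12767 genes higher (0.0157%) and 0 lower, so it made almost no calls of any kind. The study, which removed immunoglobulin genes first, reported far more genes in both directions with this kind of test. The run here did not reproduce that result, and the reason was not tested. Pre-exposed mice 1 and 5 alone gave 20 called members, with 0.348% of all genes called higher, and mice 2 to 4 alone gave 70, with 14.7%. Leaving out naïve mouse 4 gave 62 called members (2.31% of all genes) and leaving out pre-exposed mouse 5 gave 69 (8.93%). Leaving out pre-exposed mouse 2, naïve mouse 1 or naïve mouse 2 gave 17, 17 and 18 (0.854, 0.776 and 1.01% of all genes). The style of the library description as a covariate left 6 (0.384%), and the removal of a trend with gene length left 8 (0.909%).

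Among the heavy chain constant genes, none of the 6 tested was called, although the fitted differences were up to 5.75 on the log2 scale. Ighm, the gene of the IgM heavy chain (chr12:113418826-113422730), had 5133, 7850.0, 2399, 989.9 and 229 CPM in pre-exposed mice 1 to 5, against 537, 486, 521, 1223 and 617 CPM in naïve mice 1 to 5. Pre-exposed mice 1 to 3 lay above all naïve mice, and pre-exposed mouse 5 lay below all of them. Its log2 fold change was 2.29 ± 0.70 (SE, adjusted p = 0.0679, edgeR), and DESeq2 called it with an adjusted p of 0.00609. Over the other fits its adjusted p ran up to 1.00, in voom with TREAT.

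**Figure D1:**
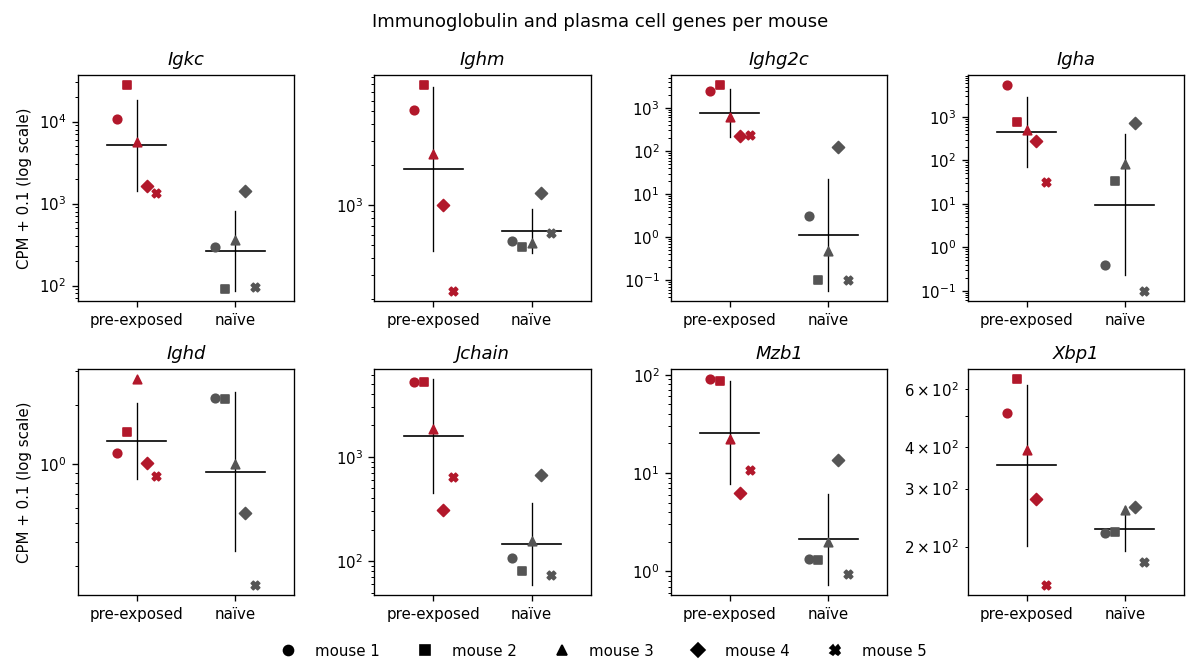
Level of 8 immunoglobulin and plasma cell genes in each mouse, in CPM plus 0.1 on a log scale, with pre-exposed mice in red on the left and naïve mice in grey on the right of each panel. Points are libraries with a symbol per mouse number, and bars are the mean and SD of the log values. Ighg2c does not overlap between the groups, Igkc, Jchain and Mzb1 overlap through naïve mouse 4, and Ighd and Xbp1 lie closest together.

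Ighg2c, the heavy chain gene of IgG2c, an isotype typical of type 1 responses in C57BL/6 mice, had the clearest separation of the isotypes. It had 2451, 3389.7, 629, 217 and 232 CPM in pre-exposed mice, against 2.95, 0, 0.387, 126 and 0 CPM in naïve mice. The groups did not overlap, naïve mouse 4 being the nearest to the pre-exposed mice. The log2 fold change of 5.75 ± 2.06 missed the threshold with all libraries (adjusted p = 0.129, edgeR) and was called without naïve mouse 4 (10.63, adjusted p = 0.0128). Over the fits with all 10 libraries its adjusted p ranged up to 0.298, in voom with TREAT, and DESeq2 gave 0.0366.

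The other IgG genes overlapped between the groups. Ighg2b had 2023, 1141, 138, 51.5 and 145 CPM in pre-exposed mice and 128, 0, 167, 565 and 0 CPM in naïve mice, where naïve mouse 4 lay above pre-exposed mice 3, 4 and 5. Ighg3, whose product is made early and often without T cell help, had 1021, 603, 55.6, 189 and 34.4 CPM in pre-exposed mice and 0.576, 0.700, 2.13, 118 and 0.709 CPM in naïve mice. Pre-exposed mice 1, 2 and 4 exceeded every naïve mouse. The log2 fold changes were 2.03 ± 1.74 for Ighg2b and 3.98 ± 1.78 for Ighg3 (adjusted p = 0.516 and 0.212, edgeR). Ighg1, the main IgG of type 2 responses, did not pass the filter and had 3145, 2621, 245, 1 and 1 counts in pre-exposed mice, against 0, 0, 0, 7 and 0 counts in naïve mice. It was thus found at over 10 counts in pre-exposed mice 1 to 3 and in no other library. With no filter it was called (adjusted p = 0.0245, edgeR). It reached that fit through its counts in pre-exposed mice alone, so this p has no weight as a test.

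Igha, the heavy chain gene of IgA, the antibody of mucosal surfaces, also overlapped. It had 5427, 782, 493, 281 and 32.1 CPM in pre-exposed mice, against 0.288, 33.0, 82.5, 714 and 0 CPM in naïve mice, and the log2 fold change was 3.08 ± 1.93 (adjusted p = 0.365, edgeR). Only pre-exposed mice 1 and 2 lay above all naïve mice. Ighd, which mature naïve B cells express together with Ighm, was low in every library, with 1.05, 1.36, 2.63, 0.912 and 0.769 CPM in pre-exposed mice and 2.09, 2.05, 0.903, 0.460 and 0.142 CPM in naïve mice. The groups overlapped and the difference was 0.15 ± 0.60 on the log2 scale (adjusted p = 0.901, edgeR), with a sign that changed in 6 of the other fits. Ighe, below the minimum for members, had its 8 counts in pre-exposed mouse 1 alone.

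Isotype use was compared within each library, as a gene's percent of all heavy chain constant counts after division by gene length. These are shares of RNA, and which cells the counts came from was not tested. The mean share of IgG was higher and that of Ighm lower in pre-exposed mice, and neither difference held after adjustment. IgG, summed over Ighg1, Ighg2b, Ighg2c and Ighg3, took 39.5, 45.3, 28.4, 31.7 and 67.7% in pre-exposed mice, against 23.0, 0.164, 24.9, 32.8 and 0.142% in naïve mice. Naïve mouse 4 lay above pre-exposed mice 3 and 4, and the other naïve mice lay below every pre-exposed mouse. The mean was 42.5 ± 15.5% in pre-exposed mice and 16.2 ± 15.1% in naïve mice (SD), a difference of 26.3 percentage points (two-sided exact permutation test, p = 0.0238, 0.111 after Benjamini-Hochberg adjustment over the 7 composition measures tested). The smallest p that 5 against 5 libraries allow is 0.00794.

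Ighm took 26.4, 48.8, 57.2, 50.7 and 27.5% of heavy chain constant counts per kb in pre-exposed mice, against 76.5, 91.7, 62.8, 39.2 and 99.8% in naïve mice. Naïve mouse 4 again lay among the pre-exposed mice, while the other naïve mice lay above all of them. The difference was -31.9 percentage points (exact permutation p = 0.0476, adjusted 0.111). In naïve mice 1, 2, 3 and 5 Ighm counts (7458, 9723, 8079 and 4354) exceeded Igkc counts (4139, 1828, 5617 and 681). In all other libraries Igkc had more counts than Ighm. Whether the Ighm counts of naïve mice came from cells that make antibody was not tested, so the shares do not show a switch of antibody class. Igha took 34.0, 5.91, 14.3, 17.5 and 4.69% in pre-exposed mice and 0.0499, 7.59, 12.1, 27.9 and 0% in naïve mice, which overlapped (difference 5.77, exact permutation p = 0.452, adjusted 0.528). The Igha difference was 1.08 without pre-exposed mouse 1 and 10.4 without naïve mouse 4. Ighd took at most 0.137% in pre-exposed and at most 0.572% in naïve mice (difference -0.18, exact permutation p = 0.190, adjusted 0.267). After adjustment, none of the 7 composition measures differed at 0.05. For pre-exposed mice 1 and 5 alone the IgG difference was 37.4 and the Ighm difference -47.0, and for mice 2 to 4 they were 18.9 and -21.8.

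Within IgG, Ighg2c was the leading gene of every pre-exposed mouse and of no naïve mouse, a split not among the measures tested. It took 47.3, 68.9, 78.4, 51.9 and 60.9% of IgG counts per kb in pre-exposed mice, against 2.71, 0, 0.278, 18.3 and 0% in naïve mice. In naïve mice 1, 3 and 4 Ighg2b led with 96.9, 98.4 and 67.3%, whereas it took 10.2 to 32.2% in pre-exposed mice. In naïve mice 2 and 5 all IgG counts were those of Ighg3, 14 and 5 in number, so that these shares rest on few counts. Ighg2c and Ighg2b shared 0.526% and 0.803% of their windows of 75 bases with another immunoglobulin gene.

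**Figure D2:**
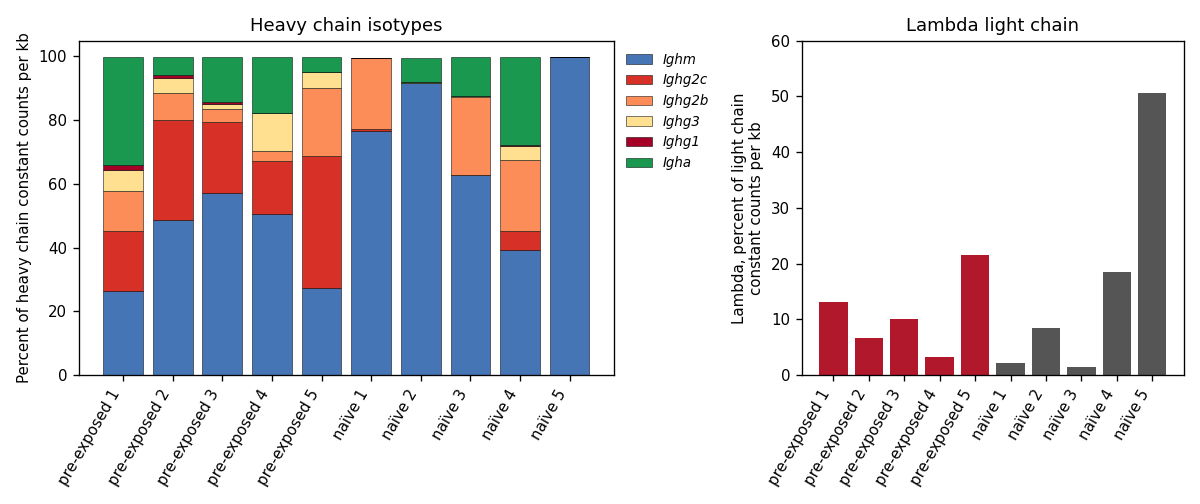
Left, percent of heavy chain constant counts per kb taken by each isotype gene in each library, with Ighd too small to see. Right, percent of light chain constant counts per kb taken by the lambda genes, with pre-exposed mice in red and naïve mice in grey. Ighg2c takes 16.5 to 41.2% of the bar in pre-exposed mice and at most 6.01% in naïve mice, and Ighm is largest in naïve mice 1, 2, 3 and 5, at 62.8% or more.

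Light chain constant genes included 2 of the called members. Igkc, the constant gene of the kappa chain (chr6:70726435-70726754), had 10766, 27888, 5657, 1634 and 1339 CPM in pre-exposed mice, against 298, 91.4, 362, 1409 and 96.6 CPM in naïve mice. Only pre-exposed mouse 5 lay below a naïve mouse, mouse 4. The log2 fold change was 4.39 ± 1.08 (adjusted p = 0.0437, edgeR). The call was lost with no expression filter (adjusted p = 0.0604), when scaling was done without immunoglobulin genes (0.0508) and in pre-exposed mice 1 and 5 alone (0.155). It was also lost when pre-exposed mouse 2 or 3 or naïve mouse 1, 2, 3 or 5 was left out (0.0657 to 0.107), with the legacy dispersion (0.0557), with the description style as a covariate (0.162) and with the length trend removed (0.168). Over all fits the adjusted p ranged from 0.00236 in DESeq2 to 0.323 in voom with TREAT.

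Of the lambda constant genes, Iglc2 was called and did not overlap between the groups in CPM. It had 242, 448, 138, 17.4 and 18.3 CPM in pre-exposed mice, against 3.67, 4.45, 3.16, 16.1 and 0.992 CPM in naïve mice. Pre-exposed mice 4 and 5 lay just above naïve mouse 4. For pre-exposed mouse 5 this rests on its scaling factor of 0.641. Its 95 Iglc2 counts of 8747888 in total were a smaller share than the 140 of 8582578 in naïve mouse 4. The log2 fold change was 4.95 ± 1.06 (adjusted p = 0.0305, edgeR), and the adjusted p was 0.0894 in pre-exposed mice 1 and 5 alone and 0.0184 in mice 2 to 4 alone. The call was lost when pre-exposed mouse 2 or 3 or naïve mouse 1, 2, 3 or 5 was left out (0.0573 to 0.0831), and with the description style as a covariate (0.0993) or the length trend removed (0.125). Over all fits it ranged from 4.43e-05 in DESeq2 to 0.465 in voom with TREAT.

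Iglc1 had 1270.4, 1320.2, 339, 3.84 and 332 CPM in pre-exposed mice, against 0.360, 1.15, 0.774, 153 and 96.7 CPM in naïve mice. Pre-exposed mouse 4 fell between naïve libraries, and the other pre-exposed mice lay above all naïve mice. Iglc3 had 121, 218, 157, 32.6 and 17.7 CPM in pre-exposed mice, against 2.38, 2.70, 1.48, 148 and 1.13 CPM in naïve mice. The log2 fold changes were 3.71 ± 1.83 for Iglc1 and 1.83 ± 1.45 for Iglc3 (adjusted p = 0.254 and 0.479, edgeR).

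The lambda genes took 13.2, 6.67, 10.1, 3.21 and 21.6% of light chain constant counts per kb in pre-exposed mice, against 2.12, 8.39, 1.49, 18.4 and 50.6% in naïve mice. The groups overlapped fully, and naïve mouse 5 had the highest share of all libraries. The difference of -5.24 percentage points was small against this spread (exact permutation p = 0.754, adjusted 0.754) and had the opposite sign without naïve mouse 5, at 3.35. Single lambda genes prevailed in single mice. In naïve mouse 5 Iglc1 took 97.8% of lambda constant counts, Iglv1 98.3% of Iglv counts and Iglj1 80% of 10 Iglj counts. In pre-exposed mouse 4 Iglc3 took 60.5% of lambda constant counts and Iglj3 61.2% of 67 Iglj counts, while Iglc1 took 7.14%.

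Light and heavy chain constant genes also stood in different proportion. Igkc counts per kb were 9.77, 16.6, 11, 7.69 and 27.3 times those of Ighm in pre-exposed mice, against 2.59, 0.876, 3.24, 5.37 and 0.729 times in naïve mice. The groups did not overlap, and this ratio was formed after the values were seen and has no test. Ighv counts came to 33.5, 30.9, 36.8, 22.9 and 56.1 per 100 heavy chain constant counts in pre-exposed mice, against 21.7, 15, 22.3, 32.6 and 8.19 in naïve mice. Naïve mouse 5 thus had the fewest V gene counts beside its heavy chain constant counts, 357 beside 4360.

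V gene use was broad in most pre-exposed mice and concentrated on a few genes in most naïve mice. It was measured by the effective number of genes, the inverse of the Simpson index, which is the number of equally used genes that would give the same concentration. For Ighv it was 34.8, 17.0, 26.1, 20.1 and 3.95 in pre-exposed mice, against 3.11, 3.98, 6.46, 18.0 and 2.34 in naïve mice. Pre-exposed mouse 5 lay among the naïve mice and naïve mouse 4 among the pre-exposed mice. The means were 20.4 ± 11.4 in pre-exposed mice and 6.77 ± 6.44 in naïve mice (SD), a difference of 13.6 (exact permutation p = 0.0714, adjusted 0.125).

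For Igkv the effective number was 28.8, 12.3, 27.8, 21.9 and 11.9 in pre-exposed mice, against 2.56, 2.85, 4.35, 20.7 and 3.15 in naïve mice. Naïve mouse 4 lay above pre-exposed mice 2 and 5, and every pre-exposed mouse lay above the other 4 naïve mice. The means were 20.5 ± 8.15 in pre-exposed mice and 6.71 ± 7.82 in naïve mice (SD), a difference of 13.8 (exact permutation p = 0.0317, adjusted 0.111). Depth differed between libraries, and the number of genes expected in equal numbers of counts was therefore computed too. In 357 Ighv counts, the total of the shallowest library, 67.1, 61.2, 54.4, 43.3 and 26.9 genes were expected in pre-exposed mice and 14.6, 23.7, 20.5, 36.7 and 12 in naïve mice. In 580 Igkv counts the values were 68.0, 65.2, 63.9, 46.8 and 32.9 genes in pre-exposed mice and 15.3, 8.87, 16.8, 43.8 and 16 genes in naïve mice. With equal counts, too, naïve mouse 4 exceeded pre-exposed mouse 5 and the other naïve mice lay below every pre-exposed mouse. Equal counts even out depth only, not the number of immunoglobulin RNA molecules or cells that a library started from.

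**Figure D3:**
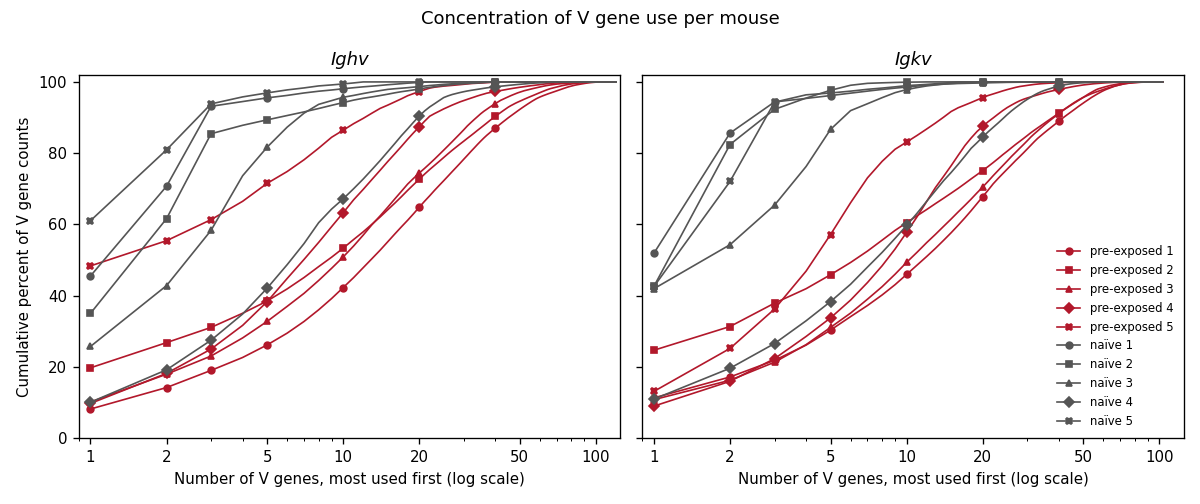
Cumulative percent of V gene counts against the number of V genes, ranked from the most used in each library on a log axis, for Ighv (left) and Igkv (right). Each line is a library, red for pre-exposed and grey for naïve mice. Naïve mice 1, 2 and 5 pass 85% with their 3 leading genes, whereas naïve mouse 4 runs with the pre-exposed mice, at 27.5% for Ighv and 26.6% for Igkv.

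The 3 leading genes took 19, 31.1, 23.1, 25.0 and 61.4% of Ighv counts in pre-exposed mice, against 93.2, 85.5, 58.4, 27.5 and 93.8% in naïve mice. They took 21.9, 37.9, 21.3, 22.3 and 36.3% of Igkv counts in pre-exposed mice, against 94.4, 92.3, 65.4, 26.6 and 94.3% in naïve mice. Exact 95% binomial intervals of the first gene's share, which cover counting error only, were narrow beside these differences. The widest was 55.8 to 66.2%, for Ighv9-3 in naïve mouse 5.

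The leading genes differed from mouse to mouse. In pre-exposed mice 1 to 5 they were Ighv1-64 (8.21% of Ighv counts), Ighv1-64 (19.8%), Ighv3-6 (10.2%), Ighv8-8 (9.77%) and Ighv10-3 (48.4%). In naïve mice 1 to 5 they were Ighv5-15 (45.5%), Ighv1-22 (35.1%), Ighv4-1 (25.8%), Ighv1-19 (10.1%) and Ighv9-3 (61.1%). Among 10 libraries only Ighv1-64 thus led more than once. Ighv10-3 in pre-exposed mouse 5 was the single pre-exposed case of a heavy chain V gene above 20%, and 4 of the 5 naïve mice had one.

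For the kappa chain, the leading genes were Igkv19-93 (11.3% of Igkv counts), Igkv8-30 (24.7%), Igkv19-93 (10.8%), Igkv1-110 (9.03%) and Igkv16-104 (13.2%) in pre-exposed mice 1 to 5. They were Igkv8-30 (51.9%), Igkv5-43 (42.6%), Igkv19-93 (42.0%), Igkv6-15 (11%) and Igkv5-39 (42.6%) in naïve mice 1 to 5. Igkv19-93 and Igkv8-30 thus led libraries of both groups. Igkv5-43 shared 39% of its windows of 75 bases with Igkv5-45, which was also counted in naïve mouse 2, at 9.86%. Iglv1 led in all 10 libraries, with 64.7 to 89.98% of Iglv counts in pre-exposed mice and 60.6 to 98.3% in naïve mice.

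Some naïve libraries were nearly reduced to a few V genes of each chain. In naïve mouse 1 Ighv5-15, Ighv8-12 and Ighv6-3 took 45.5, 25.2 and 22.4% of Ighv counts and Igkv8-30, Igkv14-111 and Igkv3-12 took 51.9, 33.7 and 8.74% of Igkv counts. In naïve mouse 2 Igkv5-43 and Igkv10-94 took 42.6 and 39.8% of Igkv counts beside Ighv1-22, Ighv1-18 and Ighv1-69 at 35.1, 26.6 and 23.8% of Ighv counts. In naïve mouse 5 the genes were Ighv9-3, Ighv1-82 and Ighv1-69, at 61.1, 19.9 and 12.9%, and Igkv5-39, Igkv3-7 and Igkv4-55, at 42.6, 29.5 and 22.2%. Each of these libraries had its own set, apart from Ighv1-69, which was among the 3 leading genes of both naïve mice 2 and 5. Which heavy and light chains came from the same cell cannot be read from bulk counts.

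**Figure D4:**
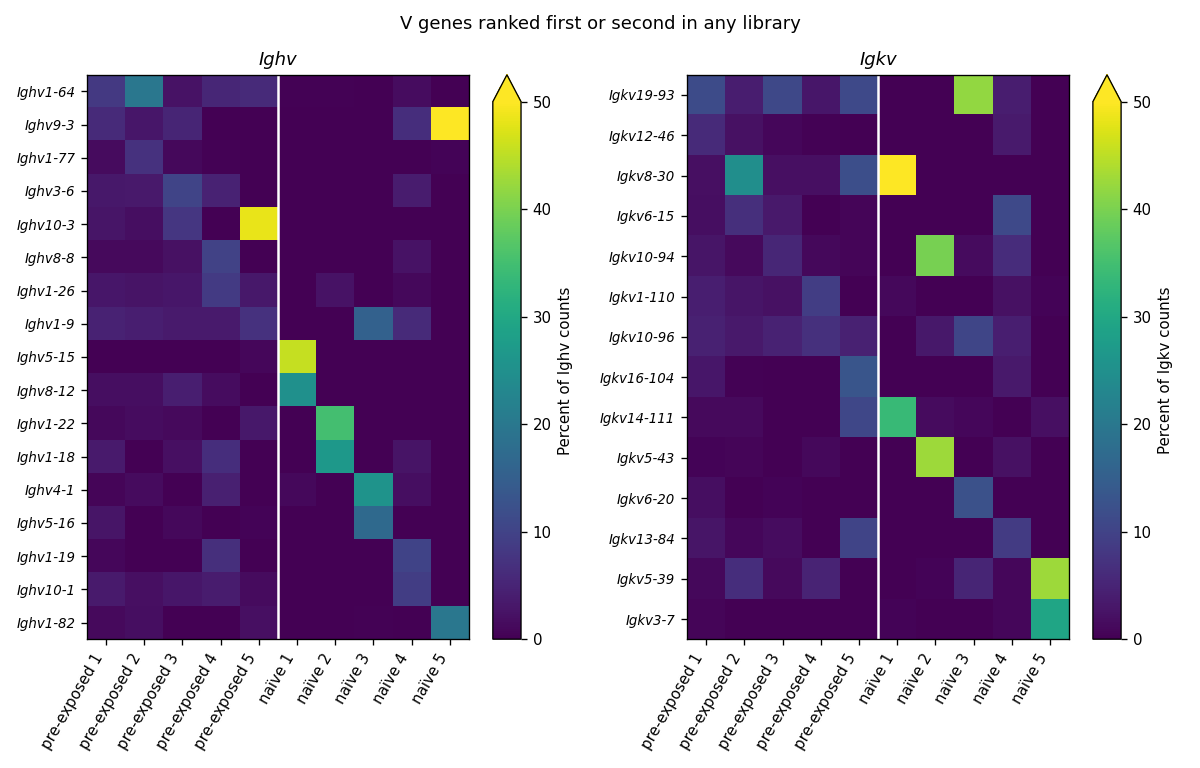
Percent of Ighv counts (left) and Igkv counts (right) in each library, pre-exposed mice left of the white line and naïve mice right of it, for every V gene ranked first or second in any library. The colour scale ends at 50%, which Ighv9-3 in naïve mouse 5 (61.1%) and Igkv8-30 in naïve mouse 1 (51.9%) exceed. The brightest cells of naïve mice 1, 2, 3 and 5 lie in different rows.

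The overlap of V gene use between 2 libraries, the percent of counts that can be matched gene by gene, followed this difference. For Ighv it was 20.9 to 62.4% (median 39.5%) in the 10 pairs of pre-exposed mice, 0.487 to 15.2% (median 6.12%) in the 10 pairs of naïve mice and 2.10 to 49.2% (median 12.6%) in the 25 mixed pairs. For Igkv it was 27.7 to 67.6% (median 40.2%) in pairs of pre-exposed mice, 1.32 to 13.8% (median 5.44%) in pairs of naïve mice and 5.45 to 52.6% (median 14%) in mixed pairs. Pairs of pre-exposed mice did not overlap in range with pairs of naïve mice. Pairs share libraries and are not independent, so these values are given as a description.

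Of the V genes that led a library, only Ighv10-3 was called. Of the 110 Ighv members 37 were tested and 8 called, and of the 99 Igkv members 51 were tested and 16 called, against 5.04% of all genes. With no filter, 34 of the 110 and 29 of the 99 were called, against 4.15% of all genes called higher in that fit. Of the 110 Ighv members 55, and of the 99 Igkv members 40, had no naïve library above 0.741 CPM. These unfiltered counts are therefore a description. Igkv12-41, Igkv9-124, Igkv9-120, Igkv4-62 and Igkv4-73 passed the filter through pre-exposed mice alone, so their p has no weight as a test and their values are a description. The 16 called Igkv members include Igkv12-41, Igkv9-124, Igkv4-62 and Igkv4-73. Igkv12-41 had 239.9, 209.7, 213, 6.19 and 40.4 CPM in pre-exposed mice, against 0.144, 0, 0, 0 and 0 CPM in naïve mice. It was present in every pre-exposed mouse and in 1 naïve mouse at 2 counts.

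Ighv1-52 had 13.2, 138, 43.7, 6.51 and 19.4 CPM in pre-exposed mice, against 0, 0.750, 0, 1.26 and 0.142 CPM in naïve mice, and the groups did not overlap (6.71 ± 1.02, adjusted p = 0.00775, edgeR, a description for the reason given above). It shared 47.7% of its windows with related Ighv1 genes. Igkv9-124 had 33.6, 78.0, 38.9, 3.26 and 10.4 CPM in pre-exposed mice and no count in any naïve mouse. Igkv4-73 and Igkv4-62 had at most 0.345 CPM in any naïve mouse. The other members with the smallest p were Ighv5-17, Ighv10-3, Ighv1-61, Igkv4-61 and Igkv4-79, with adjusted p of 0.00782 to 0.0165 (edgeR). Of these, Ighv10-3, Ighv1-61 and Igkv4-79 overlapped between the groups through 1 pre-exposed library each.

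The genes that led several libraries were not called. Ighv1-64 had 449.6, 849.8, 33.8, 21.2 and 22.3 CPM in pre-exposed mice, against 0.288, 0.200, 0.0645, 15.2 and 0 CPM in naïve mice, without overlap (6.57 ± 1.89, adjusted p = 0.0739, edgeR). The separation rests on the scaling factor of pre-exposed mouse 5, which had 116 counts against 132 in naïve mouse 4. Igkv19-93 had 1187, 911, 593, 32.3 and 266 CPM in pre-exposed mice, against 0, 0.05, 181, 59.4 and 0 CPM in naïve mice (3.63 ± 1.86, adjusted p = 0.270). Igkv8-30 had 213, 5552, 113, 23.6 and 290.3 CPM in pre-exposed mice, against 204, 0, 0, 0.115 and 0 CPM in naïve mice (4.91 ± 2.50, adjusted p = 0.267). Both kappa genes overlapped between the groups, through naïve mice 3 and 4 for Igkv19-93 and through naïve mouse 1 for Igkv8-30.

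Among the 10 Ighv genes with the highest mean level over all libraries, 2 were called, Ighv10-3 and Ighv1-77. Ighv1-77 had 83.6, 304, 15, 1.24 and 0 CPM in pre-exposed mice, against 0, 0.150, 0.129, 1.03 and 0.284 CPM in naïve mice (8.24 ± 1.73, adjusted p = 0.0234, edgeR), and pre-exposed mouse 5 was the library that overlapped. Ighv1-26 had 168, 113, 42.3, 33.4 and 12.5 CPM in pre-exposed mice, against 0, 1.85, 0, 10.2 and 0 CPM in naïve mice. Its groups did not overlap in CPM (5.03 ± 1.30, adjusted p = 0.0517). This rests on the scaling factor of pre-exposed mouse 5, which had 65 counts against 89 in naïve mouse 4. Ighv9-3, Ighv1-9, Ighv3-6, Ighv6-3, Ighv10-1 and Ighv1-80 had means of 69.2 to 108 CPM in pre-exposed mice and 6.83 to 19.8 CPM in naïve mice, and each overlapped.

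Among the 10 Igkv genes with the highest mean level, none was called. Igkv10-96 alone did not overlap, with 488, 771, 265, 76.6 and 112 CPM in pre-exposed mice, against 0, 4.4, 45.1, 62.4 and 0 CPM in naïve mice (3.94 ± 1.47, adjusted p = 0.142, edgeR). Igkv6-15, Igkv5-39, Igkv1-117, Igkv6-23, Igkv4-55, Igkv1-110 and Igkv12-46 had means of 229.9 to 377 CPM in pre-exposed mice and 4.83 to 33.3 CPM in naïve mice. Their log2 fold changes were 3.52 to 5.90 (adjusted p = 0.116 to 0.398), and each overlapped between the groups, with naïve mouse 4 above at least 1 pre-exposed mouse.

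Of the lambda V genes, Iglv3 was called and did not overlap, with 20.7, 56.8, 68.5, 3.91 and 5.38 CPM in pre-exposed mice, against 0.0720, 0, 1.68, 1.84 and 0.284 CPM in naïve mice (5.40 ± 1.01, adjusted p = 0.0189, edgeR). Iglv1 and Iglv2 had fold changes of 3.14 ± 1.61 and 4.5 ± 1.82 on the log2 scale (adjusted p = 0.270 and 0.172). Both overlapped between the groups.

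J segments of all chains were counted. Ighj1 and Ighj3 were called among the 4 Ighj, Igkj2 and Igkj5 among the 4 Igkj tested of 5, and Iglj1 and Iglj2 among the 3 Iglj segments. Of all genes tested, 5.04% were called higher. With no filter 2 Ighj, 1 Igkj and 2 Iglj segments were called, against 4.15% of all genes. Igkj2 did not overlap, with 86.6, 236, 43.2, 18.8 and 23.6 CPM in pre-exposed mice, against 0.0720, 1.5, 1.68, 6.90 and 2.41 CPM in naïve mice (5.11 ± 0.93, adjusted p = 0.02, edgeR).

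Igkj3, the kappa segment without the motif printed above, was nearly unused. It had 30, 4, 7, 2 and 0 counts in pre-exposed mice and 8, 0, 3, 0 and 0 counts in naïve mice, which is at most 0.901% of Igkj counts in pre-exposed mice and at most 9.52% in naïve mice, of 84 counts. The other 4 kappa segments took 7.90 to 42.3% each in pre-exposed mice. In naïve mice single segments prevailed, such as Igkj5 with 88.1% in naïve mouse 1, Igkj2 with 71.4% in naïve mouse 2 and 85% in naïve mouse 5, and Igkj1 with 48.1% in naïve mouse 3. Naïve mouse 4 used Igkj1, Igkj2, Igkj4 and Igkj5 at 22.7 to 29.5% each. The naïve shares rest on 20 to 264 Igkj counts per library.

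Of the 3 plasma cell genes, Jchain was called. Jchain, whose product joins IgM and IgA into polymers, had 5189.8, 5169, 1842, 311 and 646 CPM in pre-exposed mice, against 108, 81.0, 155, 672 and 73.6 CPM in naïve mice. Pre-exposed mice 1 to 3 lay above all naïve mice, and naïve mouse 4 above pre-exposed mice 4 and 5. The log2 fold change was 3.59 ± 0.92 (adjusted p = 0.0462, edgeR), and the call was lost with no expression filter (0.0644), with scaling computed without immunoglobulin genes (0.0551), and in pre-exposed mice 1 and 5 (0.131) and mice 2 to 4 (0.0663) taken alone. It was also lost when any library other than pre-exposed mouse 4 or naïve mouse 4 was left out (0.0503 to 0.109), with the legacy dispersion (0.0592), with the description style as a covariate (0.13) and with the length trend removed (0.0874). Over all fits the adjusted p ranged from 0.00522 in DESeq2 to 0.394 in voom with TREAT.

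Mzb1, a chaperone of the endoplasmic reticulum that aids antibody assembly in plasma cells and marginal zone B cells, had 90.1, 85.2, 21.9, 6.19 and 10.6 CPM in pre-exposed mice, against 1.22, 1.20, 1.87, 13.4 and 0.851 CPM in naïve mice. Again naïve mouse 4 lay above pre-exposed mice 4 and 5. The log2 fold change was 3.59 ± 0.96, which just missed the threshold (adjusted p = 0.0502, edgeR). Xbp1, the transcription factor that expands the secretory pathway in plasma cells and acts in many other cells, had 508, 645, 392, 278 and 153 CPM in pre-exposed mice, against 220.4, 222, 258, 264 and 179 CPM in naïve mice. It varied little between naïve mice and the groups overlapped through pre-exposed mouse 5 (0.79 ± 0.32, adjusted p = 0.149).

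Further genes of antibody-secreting cells were taken from lists. Of 15 plasma cell genes tested, 3 were higher and 0 lower, against 5.04% of all genes called higher, with a median log2 fold change of 0.65, against 0.06 over all genes tested. Fkbp11, a folding enzyme of secretory cells, had 6.27, 5.87, 2.47, 2.15 and 1.92 CPM in pre-exposed mice, against 0, 0.05, 0, 1.61 and 0.142 CPM in naïve mice, without overlap (3.79 ± 0.94, adjusted p = 0.0305, edgeR). The separation rests on the scaling factor of pre-exposed mouse 5, which had 10 counts against 14 in naïve mouse 4. Eaf2, an elongation factor partner, was higher by 3.49 ± 0.70 and Tent5c, a poly(A) polymerase acting on immunoglobulin mRNA, by 1.56 ± 0.36 (adjusted p = 0.0205 and 0.0290). Tnfrsf17, the receptor BCMA of plasma cells, did not pass the filter and had 7.22, 3.64, 2.63, 0.651 and 2.11 CPM in pre-exposed mice, against 0, 0, 0, 0.345 and 0 CPM in naïve mice. It was named after its values were seen, and its groups did not overlap.

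Other regulators and surface molecules of plasma cells were not called. Derl3, a factor of protein disposal in the endoplasmic reticulum, was at 21.9, 11.8, 5.33, 2.28 and 1.73 CPM in pre-exposed mice and 2.09, 1.10, 1.35, 7.70 and 3.26 CPM in naïve mice (1.57 ± 0.70, adjusted p = 0.187, edgeR). Prdm1, Irf4 and Sdc1, which T cells also express, had fold changes of 0.31 ± 0.39, 1.32 ± 0.64 and 0.09 ± 0.48 on the log2 scale (adjusted p = 0.669, 0.224 and 0.928). Of 29 Xbp1 targets of the secretory pathway tested, 4 were higher and 0 lower, against 5.04% of all genes called higher, with a median of 0.40. These were Ssr4, Sec61g, Manf and Ssr2, with log2 fold changes of 1.08 ± 0.24, 1.97 ± 0.46, 0.95 ± 0.23 and 0.93 ± 0.25 (adjusted p = 0.0237, 0.0305, 0.0335 and 0.0439). Canx and Spcs3, not called, had fold changes of -0.64 ± 0.27 and -0.57 ± 0.24 on the log2 scale (adjusted p = 0.159 and 0.167), and for each the naïve libraries lay above 4 of the 5 pre-exposed ones. Of 8 germinal centre and class switch genes tested 1 was higher, against the same 5.04%, Apex1, a base excision repair enzyme found in all cells (1.16 ± 0.27, adjusted p = 0.0284). Ung, a uracil glycosylase that acts in class switching, and Mef2b, a germinal centre transcription factor, had fold changes of 1.08 ± 0.45 and 2.02 ± 0.81 on the log2 scale (adjusted p = 0.164 and 0.137).

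Defining transcription factors of B cells were at 0. Pax5 and Ebf1, the factors that define B cells and of which plasma cells lose Pax5, had no count in any library. Of the 13 B cell markers 8 were tested, 3 higher and 0 lower, against 5.04% of all genes called higher, with a median log2 fold change of 0.88. These were Fcrla, an intracellular protein of B cells and their secreting progeny (4.49 ± 0.84, adjusted p = 0.0165), Cd79a, the signalling chain of the B cell receptor (2.88 ± 0.76, 0.0437), and Ms4a1, the surface protein CD20 (2.89 ± 0.80, 0.0453), all in edgeR. Blk, a kinase shared with γδ T cells, was 113, 114, 81.7, 132 and 29.6 CPM in pre-exposed mice and 224, 99.1, 185, 309 and 409.9 CPM in naïve mice (-1.38 ± 0.41, adjusted p = 0.0579). Summed over all 13 markers, the level was 224 to 441 CPM in pre-exposed mice and 320 to 671 CPM in naïve mice, and Blk, Cd22, Cd72 and Cd79b made up most of it.

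**Figure D5:**
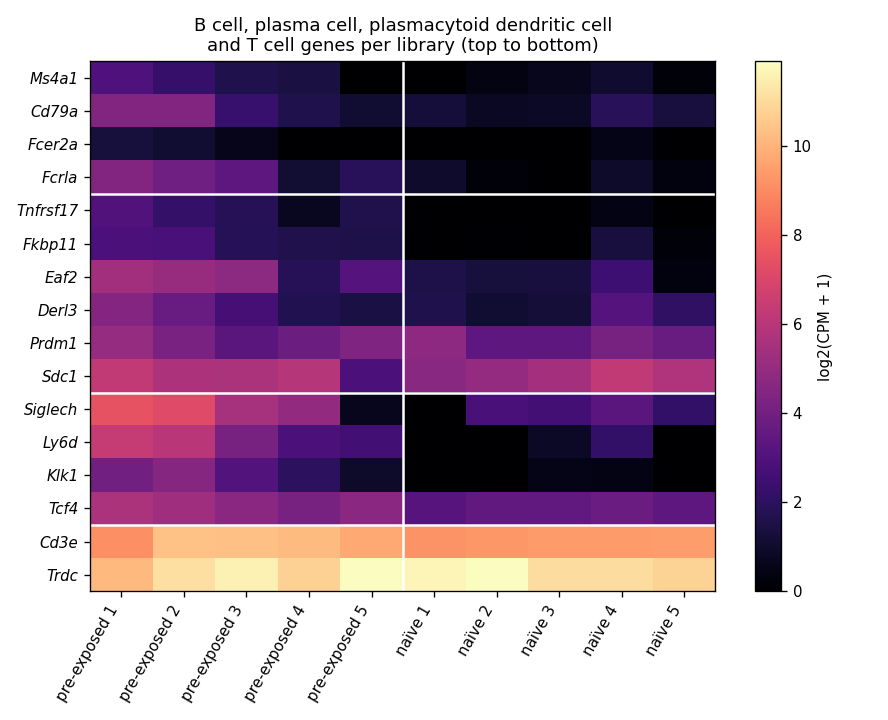
Level, as log2(CPM + 1), of genes of B cells, plasma cells, plasmacytoid dendritic cells and T cells, from top to bottom between white lines, in pre-exposed mice (left of the vertical line) and naïve mice (right). Fcer2a stays at or below 1.52 CPM in all 10 libraries. Siglech and Ly6d are highest in pre-exposed mice 1 and 2, the mice with the largest immunoglobulin share. The summed markers of conventional dendritic cells and of monocytes, not shown, are highest in these mice too.

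Markers of several other cell types were also called higher in pre-exposed mice. Plasmacytoid dendritic cells share parts of the secretory programme with plasma cells, and of their 8 markers 7 were tested, 3 higher (Tcf4, Ly6d and Bst2) and 0 lower, against 5.04% of all genes called higher. Their summed level was 223 to 559 CPM in pre-exposed mice and 132 to 182 CPM in naïve mice. Siglech, the defining surface receptor, had 182, 143, 45.3, 29.6 and 0.576 CPM in pre-exposed mice, against 0, 5.85, 5.16, 9.08 and 3.54 CPM in naïve mice (4.09 ± 1.18, adjusted p = 0.0692, edgeR). Like the immunoglobulin share, it was highest in pre-exposed mice 1 and 2 and, within the naïve group, in mouse 4. The sum of the 8 markers was also highest in pre-exposed mice 1 and 2. Within the naïve group it did not follow the share, with 182, 132, 172, 149 and 167 CPM in naïve mice 1 to 5. Conventional dendritic cell markers summed to 69.9 to 435 CPM in pre-exposed mice and 56.2 to 78.2 CPM in naïve mice (3 of 7 tested called higher), and monocyte and macrophage markers to 44.2 to 1359 CPM in pre-exposed mice and 32.0 to 150 CPM in naïve mice (2 of 4 tested called higher). The conventional dendritic cell sum and the monocyte and macrophage sum were highest in pre-exposed mice 1 and 2 and, within the naïve group, in mouse 4. For conventional dendritic cells the naïve lead was slight (78.2 CPM, against 77.2 CPM in naïve mouse 3). Erythroid markers summed to 325 to 2157 CPM in pre-exposed mice and 78.0 to 440.1 CPM in naïve mice (4 of 5 tested called higher). Unlike the immunoglobulin share, they were highest in pre-exposed mouse 5 and lowest, within that group, in pre-exposed mouse 1. Markers of αβ T cells summed to 1575 to 3280 CPM in pre-exposed mice and 1611 to 1925 CPM in naïve mice (1 of 6 tested called higher, Trac, whose groups did not overlap). The part of these cells in the immunoglobulin results was not tested.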

How the data were processed

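EM γδ T cells from 5 pre-exposed and 5 naïve mice were sequenced with 1 library per mouse. The authors aligned read pairs to mm10 with Subread, ran featureCounts on Entrez genes and deposited its raw whole-number counts. Tool versions and strandedness: not given in the sources used here. Library preparation is a SMART ultra-low input kit in the study's methods but Illumina TruSeq in the labels. The study removed immunoglobulin genes before its own test, whereas they were kept here.

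Of 27179 Entrez IDs, 25275 matched a symbol in RefSeq (GRCm38). Genes with a symbol were filtered with filterByExpr, scaled by TMM and tested with the robust quasi-likelihood test of edgeR 4.0.16 (legacy set to FALSE) in R 4.3.3, with 12767 genes in 1 fit without covariates and Benjamini-Hochberg adjustment at 0.05. CPM were taken from the TMM-scaled library sizes. Composition measures were compared by two-sided exact permutation tests of group means. A gene at 0 was compared with a floor of 3 counts over the naïve group, which covers counting error only. Alternatives included DESeq2 1.42.0, voom and TREAT (limma 3.58.1), other scalings and filters, covariates and each library left out. The fits were tested on simulated data.

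The members and lists were chosen with earlier results of these data known. Named by rule were the constant genes, Jchain, Mzb1 and Xbp1, the V gene leading each library, the 10 Ighv, 10 Igkv and 3 Iglv genes with the highest mean level, the 10 members with the smallest p and up to 4 tested genes of each list with the smallest p, and some items are not reported here. J segments, D segments and genes named for single libraries were named after their values were seen. The labels give 1 library per mouse, and p-values measure the spread between these libraries.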

Additional observations from a re-analysis of the deposited data

Results flagged for a closer look

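In 44 groups of 5 libraries, a library was looked for whose distance to the nearest other library exceeded 0.71 of the group's range, Dixon's 95% critical value. In independent groups with a normal distribution, chance alone gives this in about 5%. It occurred in 10 of the 44, which share the same libraries and are not independent, so the 5% is no yardstick for this number. Of the 10, 9 were naïve mouse 4, lying above the other naïve mice. It had an immunoglobulin share of 0.737% of counts, an effective number of 18.0 Ighv genes and of 20.7 Igkv genes. On the scale of log2(CPM + 1) it had 10.26 for Ighm, 6.99 for Ighg2c, 6.89 for Ighg3, 0.85 for Ighg1, 7.22 for Iglc3 and 3.85 for Mzb1. The Ighg1 value stands for 7 counts in naïve mouse 4 and 0 in the other naïve mice. The remaining case was pre-exposed mouse 4, which lay below the other pre-exposed mice for Iglc1, at 2.28.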

How the results depend on the processing

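The number of members called higher, 34, was 34 with DESeq2 size factors, 29 with scaling computed without immunoglobulin genes, 28 with a stricter filter, 35 with genes without a symbol kept and 43 with DESeq2. It was 71 with no expression filter, 0 with voom and TREAT, 14 with edgeR's legacy dispersion, 10 with the replicate number as a block, 6 with the style of the library description as a covariate, 20 for pre-exposed mice 1 and 5 alone, 70 for mice 2 to 4 alone and 8 after a trend with gene length was removed, an alternative chosen after seeing the data. Leaving out each library gave 17 to 69. The count of all genes called higher moved too. It was 644 as reported, 664 with no filter, 1052 with DESeq2, 2 with voom and TREAT, 320 with the legacy dispersion, 34 with the block, 49 with the description style, 46 for pre-exposed mice 1 and 5, 1953 for mice 2 to 4, 116 with the length trend removed and 101 to 1169 with a library left out. The cause of these moves was not tested, but more members could be tested with no filter. No fit called a member lower. The counts of called members can include some that entered the test through pre-exposed mice alone. The replicate numbers did not pair the libraries, with correlations of -0.126, -0.165, -0.003, -0.125 and -0.199 between libraries of the same number, none of which matched its own number best. The lambda share, -5.24, was 1.20 for pre-exposed mice 1 and 5 alone and 3.35 without naïve mouse 5, within a leave-one-out range of -8.92 to 3.35. The other composition differences kept their sign in every alternative and passed no adjusted threshold in any. Ighd changed sign with the description style (-0.42), for pre-exposed mice 1 and 5 alone (-0.44), after the length trend was removed (-0.45) and when a library was left out (-0.22 to 0.47, negative without pre-exposed mouse 3 or naïve mouse 4 or 5), and Igkv5-43 without pre-exposed mouse 2 (-0.20, of a leave-one-out range of -0.20 to 2.30). The smaller naïve libraries limit V gene shares, down to 357 Ighv and 580 Igkv counts.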
